A study of Drosophila melanogaster with 31 samples.

Results

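The retrotransposons copia and '1731' were followed in 21 poly(A) RNA libraries from Drosophila melanogaster ovaries and heads, which differ in the dose of Modulo (Mod), a nucleolar and chromatin-associated protein encoded by mod. The elements were chosen by name: they are 2 of the 126 transposon consensus sequences, and 2 of the 34563 sequences in all, to which the authors mapped their reads. Both were measured in all 21 libraries. The name of the second element is a number and is set in quotes. Each of the 7 groups had 3 biological replicates. The ovaries came from females of 3 genotypes, mod07570/+ and modL8/+ as heterozygous controls and mod07570/L8 as the transheterozygous mutant. The heads came from 4 groups, which were mod07570/+, mod07570/L8, and heads with and without ectopic eye outgrowths (EEO) that the labels also give as mod07570/L8. By the study's methods, the EEO groups are offspring of mod07570/L8 mothers and fathers with the neomorphic KrIf-1 allele of the transcription factor gene Kr, so their label names the mother. The mod07570 allele is a hypomorphic P-element insertion and modL8 an amorphic subterminal deletion of the right arm of the third chromosome. Both alleles were kept over the TM3 balancer, and age and sex of the heads are not given in the sources used here. Heads of modL8/+ were not analysed here, so in heads the loss of Mod and the second allele with its background cannot be told apart.

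LTR retrotransposons resemble retroviruses. An RNA copy of the element is made from one long terminal repeat to the other, serves as mRNA for the Gag and Pol proteins, and is reverse transcribed into a new DNA copy. copia and '1731' both belong to the Ty1/copia type, which differs from the larger gypsy type of Drosophila in the order of the enzymes within Pol and carries no envelope gene. copia makes a full-length RNA and a shorter spliced RNA for Gag, which share sequence and are counted together here. In the germline and the ovarian follicle cells, such RNAs are targets of Piwi-interacting RNAs (piRNAs), and in other somatic cells mainly of endogenous short-interfering RNAs (siRNAs) made by Dicer-2.

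The level of an element is given in cpm, the fragments that eXpress assigned to it per 1000000 counts of the library. Comparisons between the elements use FPKM, which also divides by the effective length. The consensus sequence of copia is 5143 bases long and that of '1731' is 4648 bases long. In all 21 libraries, every fragment assigned to either element mapped to that element alone, so unique and estimated counts of both were equal. No exchange of fragments with another listed sequence enters these values, although genomic copies of an element are not distinguished. Over whole libraries only 24.9 to 28.1% of the estimated counts were unique, so the elements' cpm is higher when unique counts are scaled by unique totals. For copia this value was 174 ± 22.4 (SD, n = 3) in modL8/+ ovaries and 18331 ± 3526 in mod07570/+ heads. Totals ranged from 12820086 to 22695680 estimated counts, with a median of 15082137. At this depth, the lowest copia value (44.2 cpm) has a counting interval of 41.1 to 47.3 cpm and the lowest '1731' value (2.34 cpm, 33 fragments) one of 1.61 to 3.28 cpm (95% exact Poisson, counting error only). In bulk tissue, fewer cells of a type and less RNA per cell cannot be told apart.

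As a check of the genotypes, mod mRNA was at 10.3 to 12.3 cpm in mod07570/L8 ovaries, against 324 to 342 cpm in mod07570/+ and 449 to 462 cpm in modL8/+. In heads it was at 18.2 to 20.0 cpm in mod07570/L8, 58.7 to 122 cpm in mod07570/+ and 37.1 to 52.8 cpm in the EEO groups. The tissue labels were borne out by ninaE, the main rhodopsin, at 8775 to 20868 cpm in heads and at most 0.154 cpm in ovaries. Libraries of mod07570/+ heads stood apart from each other. In replicate 2 of mod07570/+ heads the germline marker osk reached 216 cpm while the remaining replicates had 0.212 and 3.35 cpm, and the 6 germline markers summed to 296 cpm, against 16.1 and 26.0 cpm. Replicate 1 had the highest sum of the 7 follicle cell and yolk markers, mostly yolk protein RNA (158360 cpm, against 73682 and 85574 cpm), and replicate 3 the highest RNA of the muscle myosin gene Mhc (3129 cpm, against 1355 and 1304 cpm). The heads also fell into separate sets by markers of sex. The male X-chromosome RNA roX1 was at 666 to 1152 cpm in the 6 EEO-cross libraries and 2.97 to 4.55 cpm in the other 6 heads, whereas the female yolk protein gene Yp1 was at 0.969 to 6.10 cpm and at 27338 to 57495 cpm. The summed testis markers did not exceed 1.99 cpm in any library.

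copia was the most abundant transposon RNA by FPKM in 19 libraries and ranked second in replicates 2 and 3 of modL8/+ ovaries. Its mean level was highest in mod07570/+ heads (4743 ± 1029 cpm, SD, n = 3), followed by mod07570/L8 ovaries (4225 ± 82.6), mod07570/L8 heads (2050 ± 115), heads without EEO (714 ± 108), heads with EEO (694 ± 49.4), mod07570/+ ovaries (149 ± 7.10) and modL8/+ ovaries (48.1 ± 6.34). The mean of the first group was 98.7 times that of the last. Neighbours in this order overlapped in 2 places, between mod07570/+ heads and mod07570/L8 ovaries and between heads without and with EEO. All other neighbouring groups were separated in every library. At its lowest, copia ranked 6977 to 7421 among all sequences by FPKM, and in mod07570/L8 ovaries it ranked 120 to 125.

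'1731' followed a different order. Its mean level was highest in heads with EEO (168 ± 69.3 cpm, SD, n = 3), followed by heads without EEO (107 ± 5.27), mod07570/L8 heads (25.9 ± 3.40), modL8/+ ovaries (9.25 ± 0.265), mod07570/+ ovaries (7.09 ± 0.739), mod07570/L8 ovaries (5.61 ± 0.348) and mod07570/+ heads (2.63 ± 0.257). The highest mean was 64.0 times the lowest. Only heads with and without EEO overlapped among neighbours in this order. The group where copia was highest was the group where '1731' was lowest. Across the 21 libraries, log2(cpm + 1) of copia and '1731' had a correlation of -0.11 (Pearson) and -0.43 (Spearman), a description of libraries that fall into 7 groups and share tissues and genotypes.

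**Figure D1:**
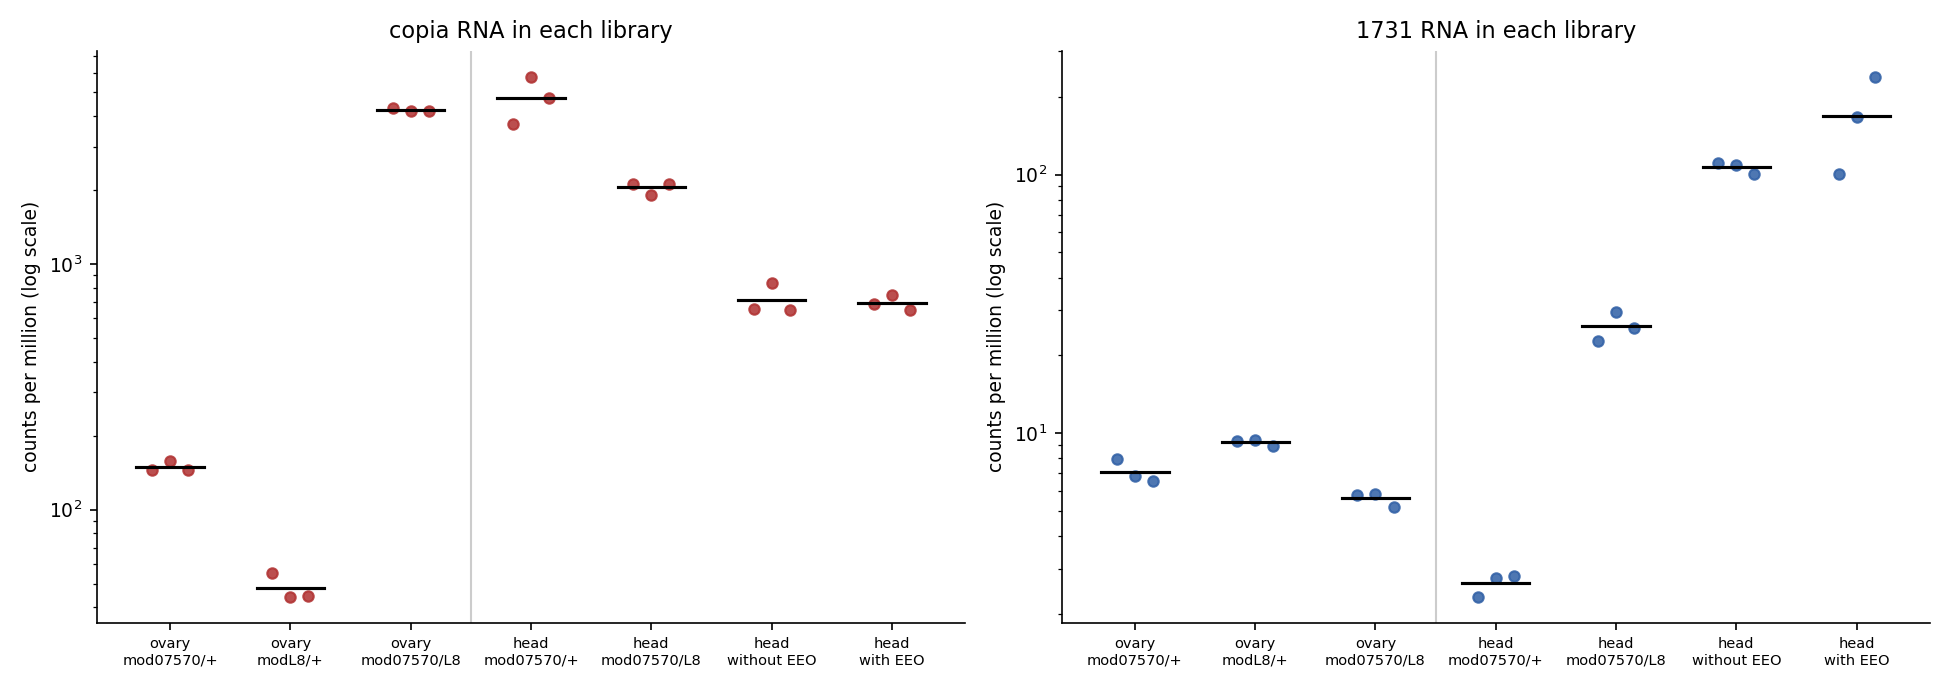
copia (left) and '1731' (right) in each of the 21 RNA libraries. The vertical axes give cpm on a log scale, points are libraries and bars are group means. copia was highest in mod07570/+ heads (mean 4743 cpm) and '1731' was lowest there (mean 2.63 cpm).

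The ovaries address whether loss of Mod activates the elements in the tissue where the piRNA pathway acts. copia was far higher without Mod, whereas no change of '1731' was detected against mod07570/+. In mod07570/+ ovaries copia was at 146, 157 and 145 cpm in replicates 1, 2 and 3, and in mod07570/L8 ovaries it was at 4320, 4179 and 4175 cpm. The groups did not overlap, and the lowest mutant library was far above the highest control. The log2 fold change was 4.92 (standard error, SE, 0.031, adjusted p = 7.05e-22), or 30.3-fold, in the quasi-likelihood test of edgeR, with p adjusted by Benjamini-Hochberg over 8498 features. This was the smallest p of all features tested and the third largest rise among 74 transposons. In these libraries 38.6% of all features and 83.8% of the transposons were called higher, and 39.6% and 5.41% lower, so a call alone says little about an element, and the size of the change is what sets copia apart from the median transposon (log2 fold change 1.70).

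The share of copia in the transposon RNA grew accordingly. It made up 28.3, 29.7 and 28.0% of the transposon counts in mod07570/+ ovaries and 76.5, 75.9 and 75.7% in mod07570/L8 ovaries. As a share of the whole library it went from 0.0149% ± 0.00071 (SD, n = 3) to 0.422% ± 0.0083. Total transposon RNA was 0.0521% of the counts in the former and 0.556% in the latter.

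'1731' stayed at a few cpm in the same ovaries. It was at 7.93, 6.82 and 6.53 cpm in mod07570/+ and at 5.79, 5.83 and 5.21 cpm in mod07570/L8, with 88 to 112 fragments in each library. Every mutant library lay below every control library. The difference was -0.23 on the log2 scale (SE 0.13, 95% interval -0.49 to 0.03) and did not pass the test (adjusted p = 0.131, edgeR). The interval excludes a rise of the size seen for the median transposon. With total-count scaling, which moves the median of all features from -0.01 to -0.11 on the log2 scale, the difference was -0.33 and passed the threshold (adjusted p = 0.0340). Counting error alone gives a coefficient of variation of 9.64% in mod07570/+ and 10.1% in mod07570/L8, close to the 10.4% and 6.20% between replicates, so the precision for '1731' in ovaries is set by its fragment number.

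Against the other heterozygous control, the rise of copia was larger still. copia was at 55.4, 44.2 and 44.7 cpm in modL8/+ ovaries. The log2 fold change of mod07570/L8 over modL8/+ was 6.54 (SE 0.049, adjusted p = 2.14e-22, edgeR), the largest among 77 transposons, where 36.5% of all features and 85.7% of transposons were called higher. '1731' was at 9.38, 9.43 and 8.95 cpm in modL8/+ and was lower in mod07570/L8, with a log2 fold change of -0.65 (SE 0.12, adjusted p = 1.38e-04). Lower calls made up 36.2% of all features and 7.79% of transposons in that comparison. The mutant libraries are the same in both comparisons, so these are not independent measurements of the mutant.

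The heterozygous controls differed from each other for both elements. copia was 3.08-fold lower in modL8/+ than in mod07570/+ ovaries (log2 fold change -1.62, SE 0.063, adjusted p = 2.20e-12, edgeR), the second lowest value among 60 transposons, of which 30% were called lower, beside 19.5% of all 8263 features. '1731' was higher in modL8/+ by 0.41 on the log2 scale (SE 0.13, adjusted p = 0.0152), where 21% of all features and 35% of transposons were called higher. Without replicate 2 or without replicate 3 of mod07570/+ ovaries this call was lost (adjusted p = 0.0505 and 0.0630). For copia, mod07570/L8 lay 4.92 above mod07570/+ and 6.54 above modL8/+ on the log2 scale, with every mutant library above both controls. The part of genetic background in these differences was not tested.

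Cell type markers also moved between the ovary groups. The 7 follicle cell and yolk markers summed to 3728 to 3836 cpm in mod07570/+, 6985 to 7219 cpm in modL8/+ and 14548 to 15207 cpm in mod07570/L8, while the 6 germline markers summed to 2387 to 2390, 2470 to 2544 and 2264 to 2307 cpm. The germline sum was mostly osk, and its members did not move together. bam was at 131 to 137 cpm in mod07570/+ and 63.9 to 69.4 cpm in mod07570/L8 ovaries. In the same order, osk was at 1774 to 1806 and 1636 to 1691 cpm. vas, in contrast, was at 136 to 149 and 204 to 214 cpm, and grk at 24.2 to 29.9 and 30.8 to 35.3 cpm. bgcn was at 0.308 to 1.33 and 2.27 to 3.92 cpm, and the ranges of nanos overlapped. From mod07570/+ to modL8/+ the follicle and yolk sum was higher and copia was lower. The part of these shifts in the copia and '1731' values was not tested.

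**Figure D2:**
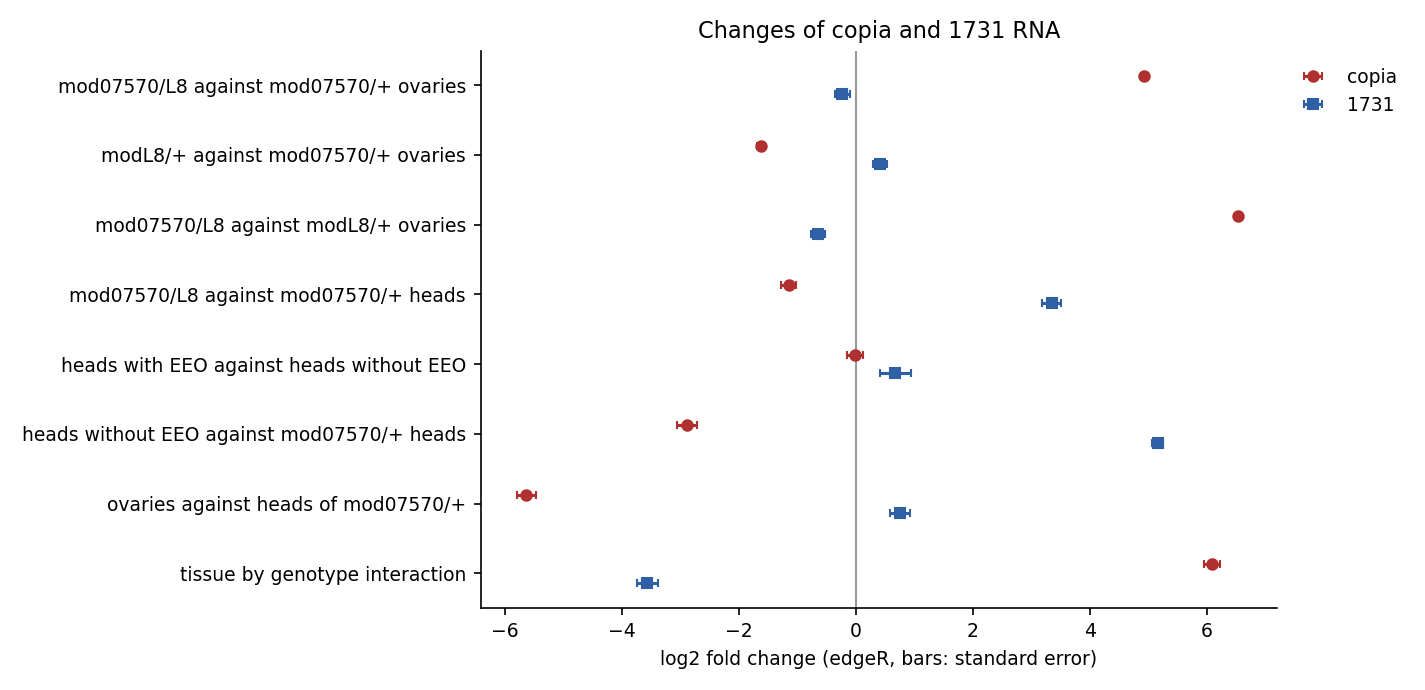
Log2 fold changes of copia (circles) and '1731' (squares) in 8 comparisons, with standard errors as bars, from edgeR. The horizontal axis gives the first group over the second, and the interaction is the ovary change minus the head change. Outside the EEO comparison, copia and '1731' lie on opposite sides of 0, although '1731' in mod07570/L8 against mod07570/+ ovaries did not pass the test. In the EEO comparison neither element passed, and copia, at -0.01, has no direction. The comparisons share libraries and are not independent.

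In heads, the change with genotype had the opposite pattern. copia fell and '1731' rose in mod07570/L8 relative to mod07570/+. copia was at 3725, 5783 and 4721 cpm in mod07570/+ heads and at 2121, 1917 and 2113 cpm in mod07570/L8 heads, without overlap. Its log2 fold change was -1.14 (SE 0.13, adjusted p = 0.00597, edgeR), or 2.21-fold lower. Few features changed in heads: 1.9% of 10033 were called lower and 1.6% higher, and of 93 transposons 15.1% were called lower and 18.3% higher. copia had the sixth lowest log2 fold change among the transposons. The numbers of called features changed with any 1 library left out, which also leaves fewer replicates for the test and alters the set of features that pass the filter. There were 161 higher and 191 lower with all libraries, 24 and 45 without mod07570/L8 replicate 1, 24 and 46 without replicate 2, 59 and 81 without replicate 3, 287 and 123 without mod07570/+ replicate 1, 212 and 259 without replicate 2, and 88 and 68 without replicate 3.

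The highest copia value was in the mod07570/+ library with germline RNA, where it reached 5783 cpm. Without this library the log2 fold change was -1.06 (adjusted p = 0.00616, edgeR). It was -1.21 without replicate 1, the library with the most yolk protein RNA, and -1.17 without replicate 3, the library with the most Mhc RNA, and the call held in both cases (adjusted p = 0.00527 and 0.0187). The part of these markers in the copia and '1731' values was not otherwise tested. The call did not survive the loss of mod07570/L8 replicate 1 (-1.17, adjusted p = 0.0583) or replicate 2 (-1.10, adjusted p = 0.0665), where the difference itself was of similar size.

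'1731' rose from a low level. It was at 2.34, 2.75 and 2.81 cpm in mod07570/+ heads, which are 33, 37 and 36 fragments, and at 22.7, 29.5 and 25.6 cpm in mod07570/L8 heads, which are 312, 423 and 349 fragments. The ranges were far apart. This was a log2 fold change of 3.35 (SE 0.16, adjusted p = 1.20e-04, edgeR), or 10.2-fold, the fourth largest among 93 transposons. It ranged from 3.25 to 3.44 with any 1 library left out. Even so, '1731' made up only 0.271, 0.364 and 0.311% of the transposon counts in mod07570/L8 heads, and copia 25.3, 23.7 and 25.7%, down from 39.7, 49.9 and 41.4% in mod07570/+.

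**Figure D3:**
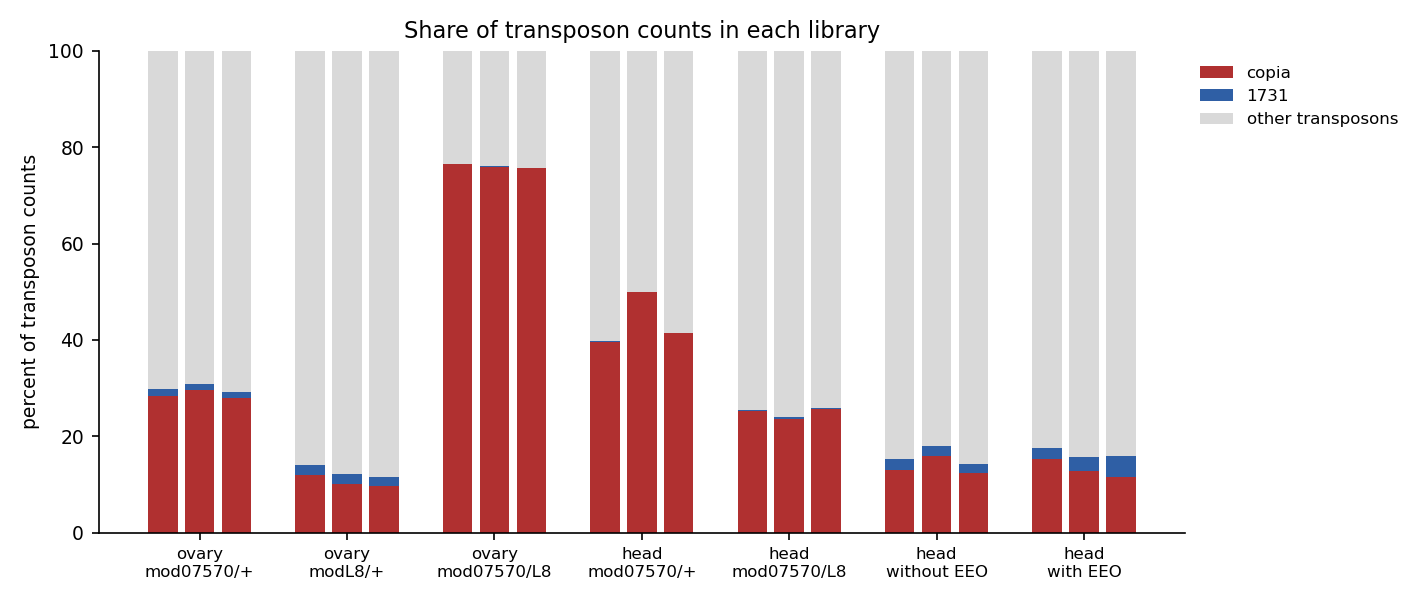
Share of copia, '1731' and all other transposons in the transposon counts of each library, in percent; each bar is 1 library and the 3 bars of a group are its replicates. copia took 75.7 to 76.5% in mod07570/L8 ovaries and 9.71 to 12.0% in modL8/+ ovaries, and '1731' reached its largest share, 4.29%, in a head library with EEO.

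The difference between the tissues was itself tested as an interaction of tissue and genotype over the 12 mod07570/+ and mod07570/L8 libraries. For copia, the ovary change exceeded the head change by 6.09 on the log2 scale (SE 0.14, adjusted p = 2.11e-09, edgeR), the largest value among 99 transposons and the smallest p of 10827 features. For '1731' it was -3.57 (SE 0.18, adjusted p = 6.67e-07), the second lowest of the transposons. Positive interactions were called for 18.2% of all features and 60.6% of transposons, and negative ones for 6.04% and 6.06%. Neither value lost its call when any 1 of the 12 libraries was left out.

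Of 68 transposons tested in both tissues, copia was 1 of 10 that were higher in mod07570/L8 ovaries and lower in mod07570/L8 heads, together with 3S18, Quasimodo, Stalker4, TART-A, TART-B, diver, flea, mdg3 and roo. '1731' was 1 of 3 that were higher in heads with no call in ovaries, together with gypsy12 and invader3. Another 11 were higher in both tissues and 38 were higher in ovaries with no call in heads. The share of all features in these classes was not computed. Taken by tissue, 38.6% of all features were called higher in ovaries, and 1.6% higher and 1.9% lower in heads. Leaving out head libraries changed these counts. The 10 became 1 (diver) without mod07570/L8 replicate 1 or 2, 4 without mod07570/L8 replicate 3, 6 without mod07570/+ replicate 3 and 16 without mod07570/+ replicate 2, and the 11 became 3, 3, 4, 8 and 12, while no ovary library changed the 10. Without any 1 mod07570/L8 ovary library, 56 or 57 transposons were tested, the 11 became 9 and the 38 became 29 or 30. The 3 became 2 without mod07570/+ ovary replicate 3 or mod07570/L8 ovary replicate 2 or 3, and 1 without mod07570/L8 head replicate 1 or 2. These groups are counts of calls, and the thresholds are reached at smaller changes in ovaries (common biological coefficient of variation 0.024) than in heads (0.200).

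**Figure D4:**
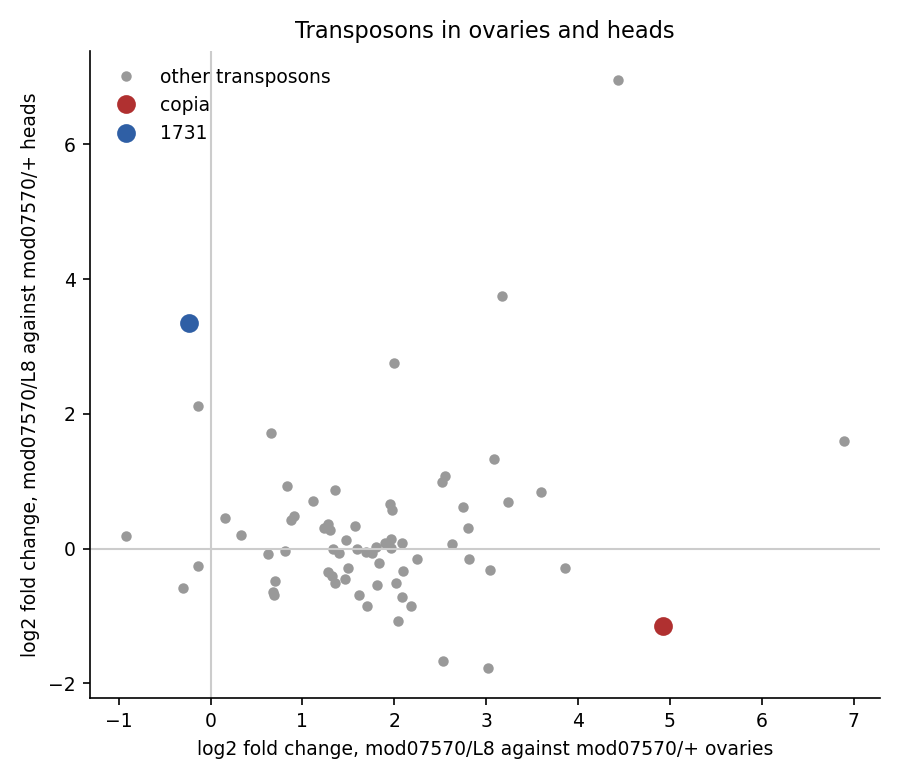
Log2 fold change of mod07570/L8 over mod07570/+ in ovaries (horizontal) and in heads (vertical) for 68 transposons tested in both tissues, each point being 1 transposon. copia lies at 4.92 and -1.14, and '1731' at -0.23 and 3.35.

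In control flies themselves, copia RNA was far more abundant in heads than in ovaries. The log2 fold change of mod07570/+ ovaries over heads was -5.64 (SE 0.16, adjusted p = 8.38e-07, edgeR), or 49.9-fold lower in ovaries. The size of this value depended on the processing. It ranged from -5.77 to -4.99 with the other settings and from -6.04 to -5.52 with 1 library left out. Mean copia cpm in heads was 31.8 times that in ovaries. Most transposons lay on the same side: 93.5% of 92 were called lower in ovaries, beside 47% of 10513 features, and the median transposon was at -4.44. '1731' was 1 of the 4 transposons (4.35%, beside 42.4% of all features) called higher in ovaries, by 0.76 (SE 0.17, adjusted p = 0.00472). This call was lost without replicate 1 (0.44, adjusted p = 0.0728) or without replicate 2 (0.40, adjusted p = 0.0696) of the heads, and the value also moved without replicate 3 (0.48, adjusted p = 0.0489). In these fits the filter of 1 cpm in 3 libraries left 8325 to 8328 features, and the median of all features was 0.14 to 0.20. The set of features and the scaling thus changed together with the library left out, and their parts were not tested. Total-count scaling gave 1.43 for '1731' and moved the median of all features from -0.14 to 0.52. mod07570/L8 ovaries, in contrast, had copia at 2.06 times the mean of mod07570/L8 heads in cpm.

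The EEO groups ask whether flies of one cross with and without outgrowths differ. No difference was detected for either element. copia was at 686, 747 and 649 cpm with EEO and 653, 838 and 649 cpm without, and the ranges overlapped almost entirely. copia differed by -0.01 on the log2 scale (SE 0.14, 95% interval -0.28 to 0.26, adjusted p = 0.986, edgeR). Leaving out single libraries turned the sign (0.05 without replicate 3 of heads with EEO, 0.13 without replicate 2 of heads without EEO), so the value has no direction. '1731' was at 100, 166 and 239 cpm with EEO and 111, 109 and 101 cpm without. With EEO, 2 libraries lay above all of those without, and 1 lay below all of them.

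The log2 fold change of '1731' was 0.68 (SE 0.27, 95% interval 0.14 to 1.21), which did not pass the test (adjusted p = 0.510, edgeR). In this comparison 0.511% of 10178 features were called higher and 0.0295% lower, and 2.13% of 94 transposons were called higher. The value depended on single libraries with EEO. Without replicate 3, the highest, the log2 fold change was 0.36 (adjusted p = 0.529), and without replicate 1, the lowest, it was 0.93 and passed the threshold (adjusted p = 0.0331). The numbers of called features moved too, from 52 higher and 3 lower to 192 and 40 without replicate 1 of the heads with EEO, and to 22 and 0 without replicate 3 of the heads without EEO. Replicate 1 with EEO also had the lowest roX1 of the EEO-cross heads (666 cpm, beside 1058 and 1152 cpm with EEO otherwise) and the highest sum of the 7 follicle and yolk markers (43.1 cpm, against 14.1 and 7.89 cpm). The part of these markers in the '1731' value was not tested. Replicates with EEO varied by 41.2% (coefficient of variation) for '1731', where counting error gives 2.09%, and by 7.12% for copia.

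Set beside mod07570/+ heads, heads without EEO had less copia and more '1731'. The mod07570/+ libraries are the same as in the comparison with mod07570/L8 heads, so these are not independent measurements of the control. Using the copia values above, the log2 fold change was -2.89 (SE 0.17, adjusted p = 4.39e-04, edgeR), the third lowest of 95 transposons, 44.2% of which were called lower, beside 10% of 10179 features. For '1731' it was 5.17 (SE 0.095, adjusted p = 1.59e-06), or 35.9-fold, the largest among the transposons, 7.37% of which were called higher, beside 15.1% of all features. Both male X-chromosome RNAs and the yolk protein genes separate these groups completely, as given above for roX1 and Yp1, so sex, cross and genotype cannot be told apart here. The muscle marker Mhc was at 3955 to 4751 cpm in heads without EEO and 1304 to 3129 cpm in mod07570/+ heads. The 1537 features called higher and 1019 called lower became 274 and 315, 305 and 378, or 325 and 363 without replicate 1, 2 or 3 of the heads without EEO, and 1489 and 1597 without mod07570/+ replicate 2, whereas both elements kept their calls in each case.

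Within a library, the ratio of copia to '1731' FPKM needs no scaling between libraries. The geometric mean was 23.8 in mod07570/+ ovaries (range 21.2 to 25.6), 5.75 in modL8/+ ovaries (5.42 to 6.25) and 826 in mod07570/L8 ovaries (780 to 878). In heads it was 1995 in mod07570/+ (1793 to 2359), 90.0 in mod07570/L8 (75.8 to 105), 8.49 without EEO (7.72 to 9.71) and 5.47 with EEO (3.45 to 8.06). copia RNA exceeded '1731' RNA per length in all libraries, and by the most in mod07570/+ heads and mod07570/L8 ovaries. The ratio was 34.7 times higher in mod07570/L8 than in mod07570/+ ovaries and 22.2 times lower in mod07570/L8 than in mod07570/+ heads. In 5 of the 6 comparisons the groups did not overlap and the two-sided exact permutation test gave p = 0.1, the smallest that 3 libraries against 3 allow (0.12 after Benjamini-Hochberg adjustment over 6 comparisons). Heads with and without EEO overlapped (exact permutation p = 0.2). The ratio does depend on the effective lengths, which were 60.3 to 73.7% of the length for copia and 85.3 to 94.2% for '1731'. Unique counts per kilobase of full length gave lower ratios, such as 16.6 to 20.9 in mod07570/+ ovaries and 2.46 to 6.20 in heads with EEO.

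**Figure D5:**
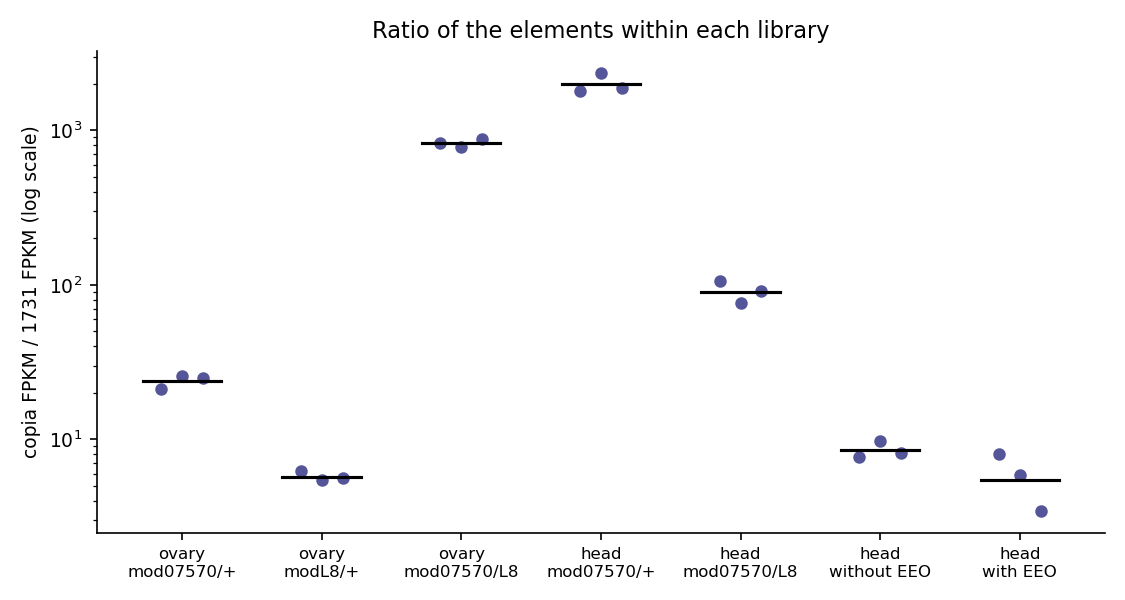
Ratio of copia FPKM to '1731' FPKM within each library, on a log scale; points are libraries and bars are geometric means of 3 libraries. The ratio was highest in mod07570/+ heads (geometric mean 1995) and in mod07570/L8 ovaries (826), and lowest in heads with EEO (5.47) and modL8/+ ovaries (5.75).

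Other LTR retrotransposons were counted beside the elements, from a list of 62 besides copia and '1731'. Among 42 tested in mod07570/L8 against mod07570/+ ovaries, 35 rose, 2 fell and 5 passed in neither direction, with a median log2 fold change of 1.66 (all features -0.01), where 38.6% of all features were called higher and 39.6% lower. The largest changes were those of springer (6.89), Tirant (5.28) and blood (3.86), gypsy-type elements. In heads of the same genotypes 10 of 48 were higher, 9 were lower and the median was 0.12, beside 1.6% and 1.9% of all features. Without mod07570/+ replicate 2, the library with germline RNA, 11 of 47 were higher, 13 were lower and the median was -0.03, and without mod07570/L8 replicate 1 or 2 only 2 were higher and 1 lower. In the EEO comparison 2 of 51 were higher, beside 0.511% of all features (4 without replicate 1 of the heads with EEO). Between heads without EEO and mod07570/+ heads 3 of 49 were higher and 25 lower, with a median of -0.67, beside 15.1% and 10% of all features. Of these, 0 or 1 were higher and 15 to 17 lower when a library without EEO was left out (edgeR; with all libraries DESeq2 gave 3 and 25). Between mod07570/L8 and mod07570/+, the signed log2 fold change of '1731' lay below the list's median in ovaries and above it in heads. That of copia lay above the median in ovaries and, being a fall, below it in heads.

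Genes of the silencing pathways had smaller fold changes than copia in ovaries. Of the 5 siRNA genes, 4 fell in mod07570/L8 relative to mod07570/+ ovaries, where 39.6% of all features were called lower and 38.6% higher. These were Dcr-2, which cuts double-stranded RNA into siRNAs (log2 fold change -0.65), its partner r2d2 (-0.22), the double-stranded RNA binding protein gene loqs (-0.38) and the methyltransferase gene Hen1, which protects siRNA ends (-0.57). AGO2, the effector nuclease, rose by 0.51. In heads of the same genotypes Dcr-2 fell by 0.43 (adjusted p = 0.0341, edgeR), and the other 4 did not pass the test. Of all features in heads, 1.9% were called lower and 1.6% higher. No siRNA gene was called when any head library but mod07570/+ replicate 2 was left out. Of 26 piRNA genes in ovaries 6 rose and 16 fell, with a median of -0.16. As shares of the list these counts stand beside the same 38.6% and 39.6% of all features. The largest changes were a rise of fs(1)Yb by 1.05, a gene of piRNA production in follicle cells, a fall of krimp (-1.03), and a rise of qin by 0.69, both of the latter encoding Tudor proteins of the germline nuage. In heads 15 of the piRNA genes were tested, beside the same 1.9% and 1.6% of all features called. Their median log2 fold change was -0.97, with values from -3.31 to 0.13. None passed the adjusted threshold in edgeR or in DESeq2, and 3 were lower at an unadjusted p under 0.05 in edgeR and 2 in DESeq2. Without mod07570/+ replicate 2, the library with germline RNA, the median was 0.07 and the values ran from -0.81 to 0.67, again with no call in edgeR and with 2 higher and 2 lower at an unadjusted p under 0.05.

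Among 11231 features with a mean of at least 1 cpm in some group, the one whose log2(cpm + 1) followed copia most closely over the 21 libraries was TART-A, a telomeric retrotransposon without LTRs (r = 0.92). Its mean was 24.2 cpm in mod07570/+ ovaries, 11.1 in modL8/+ ovaries, 96.5 in mod07570/L8 ovaries, 148 in mod07570/+ heads and 86.7 in mod07570/L8 heads. A RefSeq transcript without a matched symbol (0.92), Cubn, the fly cubilin of protein endocytosis (0.91), CG5921 (0.91) and lncRNA:CR42491 (0.89) came next. For '1731' the order was CG43149 (0.97), CG2604 (0.97), CG3635 (0.95), mthl8, a methuselah-type receptor gene (0.95), and asRNA:CR44030 (0.94), an antisense RNA whose reads this library kit does not separate from those of the opposite strand. mthl8 was at 0.0236 cpm in mod07570/+ heads and 21.9 cpm in mod07570/L8 heads. Several of these features were scarce, with group means of 0 to 5.89 cpm for CG43149, 0 to 3.30 for CG3635 and 0.266 to 3.29 for asRNA:CR44030. The unmatched transcript near copia had 0.227 to 3.19 cpm. All 5 features nearest to '1731' had their highest means in the EEO-cross heads, which also differ from the other heads in markers of sex. These correlations describe libraries that share tissue and genotype. With Spearman's coefficient, 3 of the 5 features nearest to copia and 2 of the 5 nearest to '1731' remained.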

How the data were processed

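The authors mapped paired-end reads to transposon consensus sequences and RefSeq transcripts with Bowtie 2 and quantified them with eXpress (versions not given in the sources used here). The deposited estimated counts share out fragments that map to several sequences, the deposited unique and total counts are whole fragments per sequence, and the deposited effective counts correct the estimated counts for bias. FPKM, as deposited, is the authors' eXpress output, per effective length. Peak lists and the authors' ChIP and immunoprecipitation libraries were not used here.

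Transcripts were summed to genes (32852 of 34437 matched a symbol; the rest held at most 0.872% of counts). Rounded estimated counts were tested for features that reached 1 cpm in 3 or more libraries of a comparison, using edgeR 4.0.16 (two-sided quasi-likelihood F test, TMM) in R 4.3.3, and called at a Benjamini-Hochberg adjusted p under 0.05. The 95% intervals of log2 fold changes take a normal quantile of the SE, so they are narrower than intervals matched to the F test. Log2 ratios of FPKM were compared by exact permutation tests. Alternatives were DESeq2 1.42.0, total-count scaling, TMM from genes only, unique counts, effective counts, no filter, a replicate block, one fit for all groups of a tissue, and each library left out. The test was tried on simulated counts. Python 3.11.15, numpy 2.4.6, pandas 2.3.3, scipy 1.17.1 and matplotlib 3.10.9 were used. The elements, gene lists and tests were chosen with earlier results of these data known. Named genes are the elements, the 5 features most like each, all siRNA genes, the 3 genes of a list with the largest called ovary change, and marker genes.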

Additional observations from a re-analysis of the deposited data

Results flagged for a closer look

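The mod07570/L8 effect on copia differed between ovaries and heads by 6.09 on the log2 scale in a test of the difference itself (edgeR, adjusted p = 2.11e-09), with a rise in ovaries and a fall in heads. For '1731' the difference was -3.57 (adjusted p = 6.67e-07), with a rise in heads and no call in ovaries. Ovaries and heads were not matched for the modL8/+ control. Groups of 3 libraries were too small to test for single outlying samples.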

How the results depend on the processing

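Of 234 recomputed values of 16 results tested across all features, 224 kept their direction and their side of the threshold. The 48 recomputed values of the 6 copia to '1731' ratios kept their direction, and their exact tests cannot reach the threshold. The exceptions for '1731' were its ovary difference from mod07570/+ with total-count scaling (-0.33, adjusted p = 0.0340), and calls that moved when 1 library was left out, for which the log2 fold change ranged from 0.35 to 0.49 between the ovary controls, from 0.36 to 0.93 between heads with and without EEO, and from 0.40 to 0.92 between mod07570/+ ovaries and heads. For copia in mod07570/L8 against mod07570/+ heads the range was -1.21 to -1.06, and in the EEO comparison it was -0.076 to 0.13, with values of 0.05 and 0.13 turning the sign. The causes were not tested. Replicate numbers were not treated as pairs in the main tests. Correlations of same-numbered deviations ranged from -0.139 to 0.356, and no comparison had all pairs above 0.1. In the comparisons of mod07570/+ heads with mod07570/L8 heads and with heads without EEO, every library nevertheless correlated best with its own number. Whether heads of 1 number were handled together was not tested. A replicate block changed no call of either element (copia 4.92 in ovaries and -1.14 in heads, '1731' -0.23 and 3.34), and lowered the calls between heads without EEO and mod07570/+ heads from 1537 higher and 1019 lower to 957 and 655. DESeq2 called 322 higher and 323 lower in mod07570/L8 against mod07570/+ heads, against 161 and 191 by edgeR, and 201 and 54 against 52 and 3 in the EEO comparison, 1555 against 1019 lower for heads without EEO, and 1282 against 654 negative interactions (60.6% of calls positive in place of 75.1%). Fitting all heads together gave 257 higher in mod07570/L8 against mod07570/+ heads, and 5 lower in the EEO comparison. Unique counts gave 2010 higher and 2038 lower in place of 3280 and 3363 for mod07570/L8 against mod07570/+ ovaries, 1786 and 1763 in place of 3040 and 3018 against modL8/+, 697 and 699 in place of 1739 and 1609 between the ovary controls, 701 and 742 for heads without EEO, 31 and 2 in the EEO comparison, and 981 and 243 in place of 1969 and 654 interactions. With any 1 library left out, interactions ranged from 1602 to 2343 positive and 486 to 1699 negative (2343 and 1699 without head mod07570/+ replicate 2, 58.0% positive). With total-count scaling, the share of calls that were higher was 39.3% in place of 49.4% for mod07570/L8 against mod07570/+ ovaries, 40.1% in place of 50.2% against modL8/+, 57.2% in place of 47.4% between tissues, and 79.4% in place of 60.1% for heads without EEO (572 lower), where unique counts gave 48.6% and DESeq2 47.7%. Depth limits '1731' in mod07570/+ heads (33 to 37 fragments) and in ovaries (88 to 170). The counts for gene lists, for transposons by call in both tissues and their values without single libraries were chosen after seeing the data.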
